A study of Mus musculus with 6 samples.

Results

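The genes described here are 10 genes of cartilage: the transcription factors Sox9, Sox5 and Sox6 and the matrix genes Acan, Comp, Matn1, Matn3, Hapln1, Cnmd and Chad. They were chosen by name, as all probe sets whose annotation gives 1 of these symbols alone, which found 25 of the 45037 probe sets on the array without controls, and 10 of the 18193 genes measured. RNA came from 3 pRb-deficient and 3 pRb-expressing cultures of MC3T3 osteoblasts, with 1 Affymetrix Mouse Genome array per culture. MC3T3 cells here are bone-forming cells from the calvariae (skull roof) of mouse embryos at day 18.5, made immortal by serial passage. The pRb-deficient cells (labelled Rb Knockout) came from mice lacking pRb, and the pRb-expressing cells (labelled Wild type) from control littermates. The labels name floxed RB1 mice (flox19-RB1, C57BL/6 background) and Cre driven by the 2.3- and 3.6-Col1a1 promoters, which act in osteoblast-lineage cells, and give neither the Cre line used for these cultures nor the Cre status of the controls. They call the cultures biological replicates without saying that they came from separate animals or lines, so the p-values reflect the variation among these cultures alone, which may be technical.

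Cartilage is made by chondrocytes, and SOX9 is the transcription factor that commits mesenchymal cells to that fate. SOX5 and SOX6 are close relatives of each other without an activation domain, and they work with SOX9 on the enhancers of cartilage genes. The matrix that follows is built on type II collagen and on aggrecan, a large proteoglycan that link protein fastens to hyaluronan, with matrilins and cartilage oligomeric matrix protein as adaptors between them. Most calvarial bone forms without a cartilage model, so these are mainly genes of a neighboring lineage in this tissue.

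Of the 10 genes, 2 were higher in pRb-deficient than in pRb-expressing osteoblasts (Sox5 and Acan), 5 were lower (Sox9, Sox6, Matn3, Hapln1 and Cnmd), 2 did not pass the test (Comp and Matn1) and 1 (Chad) was too dim on all 6 arrays to be tested. The authors' MAS5 signals, which are linear brightness values scaled between arrays, were set to 32 where lower (near background), log2 transformed and fitted with limma over all 38427 probe sets that exceeded 32 on at least 1 array, and a call is an adjusted p under 0.05 (Benjamini-Hochberg). For a gene with several probe sets, the brightest stands for the gene. Among all 16308 genes tested in this way 41.9% were called, 18.5% as higher and 23.4% as lower, and among the 9677 whose signal averaged 200 or more the share was 59.0%. With the median of each chromosome removed the share was 39.0% of all genes. The median log2 fold change of the 9 tested genes was −0.89 and that of all genes tested −0.09. Signals of the groups did not overlap in 7 of the 10 genes, beside 53.8% of all genes tested. Log2 fold changes are pRb-deficient over pRb-expressing throughout.

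**Figure D1:**
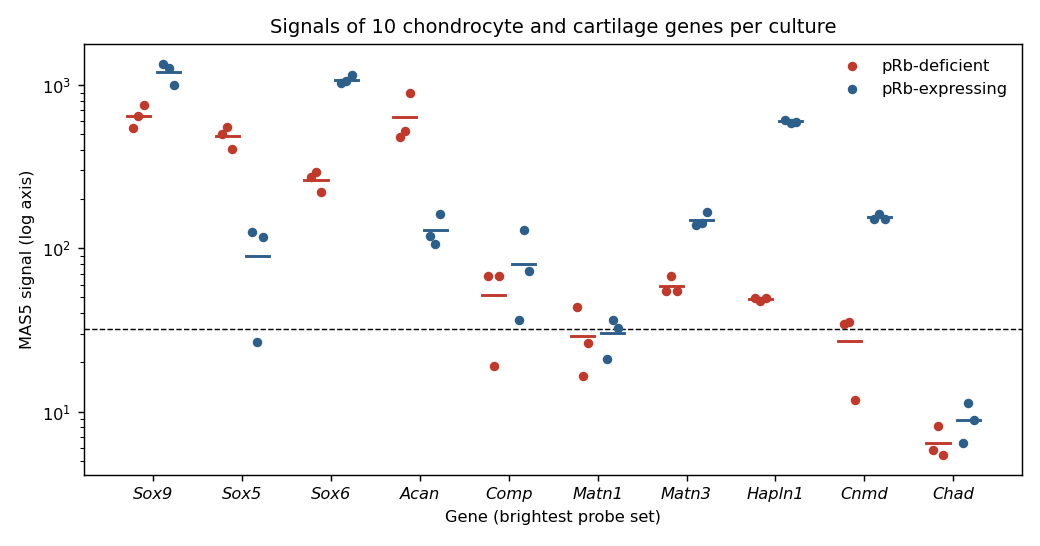
MAS5 signal (log axis) of the brightest probe set of each of the 10 genes per culture (points), with a bar at each group mean (n = 3) and a dashed line at the floor of 32. Sox5 and Acan lie higher in pRb-deficient cultures, Sox9, Sox6, Matn3, Hapln1 and Cnmd lie lower, and Comp, Matn1 and Chad overlap.

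The arrays had been scaled by the authors to 1 trimmed mean, and signals of 32 or less made up 24.4% to 26.6% of each array. Rb1, the targeted gene, had signals of 143, 127 and 124 in pRb-deficient and 1124, 1119 and 1106 in pRb-expressing cultures. The position of its probes against the deleted exon was not looked up. Osteoblast markers were present in both groups in part: Col1a1, the main collagen of bone, had 13388, 10831 and 8616 in pRb-deficient and 19145, 20551 and 16759 in pRb-expressing cultures. The osteoblast transcription factor gene Sp7 had 171, 16.4 and 185 in pRb-deficient and 1574, 1842 and 2084 in pRb-expressing cultures, and Ibsp and Dmp1, of the mineralizing matrix, were at or below 32 in all 3 pRb-deficient cultures. Msx2, a homeobox gene of the osteoblast lineage, ran the other way, with 1928, 2300.2 and 1915 in pRb-deficient and 203, 209.5 and 117 in pRb-expressing cultures. Of 10 osteoblast markers measured, 2 were higher (Msx2 and Phex) and 8 lower, beside 18.5% higher and 23.4% lower among all genes tested. The summed signal of these 10 was 38080 to 50680 in pRb-deficient and 65130 to 75290 in pRb-expressing cultures. The groups also differed in Xist, a transcript of the inactive X chromosome in female cells (9658 to 12296 in pRb-deficient, 160 to 176 in pRb-expressing cultures), and in the Y-linked genes Eif2s3y, Kdm5d and Uty, which were at or below 32 in all pRb-deficient cultures. Whole chromosomes were shifted, with median log2 fold changes between −0.58 (chromosome 6) and 0.35 (chromosome 15), so the median of each gene's chromosome is given beside it. Chromosome medians are taken over genes averaging a signal of 200 or more, and those given beside a gene leave that gene out. Line of origin and pRb status cannot be told apart, and fewer cells of a type cannot be told apart from less RNA per cell.

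Sox9 was lower in pRb-deficient osteoblasts. Its brightest probe set had signals of 549, 648 and 755 in pRb-deficient and 1354, 1264 and 998 in pRb-expressing cultures. The groups did not overlap, and both kept a clear signal. The log2 fold change was −0.89 (standard error, SE, 0.16, adjusted p = 0.00439 by limma), 1.85-fold lower. A second probe set, 1451538_at, had 348, 403 and 418 in pRb-deficient and 858, 1022 and 686 in pRb-expressing cultures (−1.12, SE 0.16, adjusted p = 0.00170 by limma), while 1433889_at lay near background and did not pass (−0.41, adjusted p = 0.213 by limma). Sox9 lies on chromosome 11, whose other genes averaging a signal of 200 or more had a median of −0.52. Of the 10 nearest genes averaging a signal of 200 or more, 0 were higher and 6 were lower, the direction of Sox9. Among all genes at that signal, 59.0% were called in either direction. With the chromosome's median removed, the value of Sox9 was −0.37 in the brightest probe set, which then did not pass (adjusted p = 0.116 by limma). It was −0.60 in the second, which did (adjusted p = 0.0267 by limma).

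Sox5 and Sox6, the SoxD pair that work with SOX9, changed in opposite directions. The brightest Sox5 probe set had signals of 499, 554 and 404 in pRb-deficient and 126, 26.7 and 118 in pRb-expressing cultures. The pRb-deficient cultures were all higher, and replicate 2 of the pRb-expressing cultures lay under the floor and far below the other two. Mean signals were 485 ± 75.9 in pRb-deficient and 90.3 ± 55.2 in pRb-expressing cultures (SD, n = 3 each), a ratio of 5.37, and the log2 fold change was 2.62 (SE 0.52, adjusted p = 0.00728 by limma). It was 1.98 without pRb-expressing replicate 2, and without pRb-deficient replicate 2 this probe set no longer passed (2.52, adjusted p = 0.0522 by limma). A tighter one, 1423500_a_at, had 333, 324 and 288 in pRb-deficient and 37.9, 27.4 and 39.7 in pRb-expressing cultures (3.11, SE 0.19, adjusted p = 4.03e-05 by limma), and still passed without that culture (adjusted p = 0.00119 by limma). Of the 7 Sox5 probe sets, 5 were higher and the other 2, 1432190_at and 1459261_at, were near background and did not pass (−0.14 and 0.06). The other genes of chromosome 6, where Sox5 lies, had a median of −0.58 at signals averaging 200 or more. Of the 10 nearest such genes, 1 was higher and 7 were lower, beside 59.0% called in either direction among all such genes.

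Sox6 had signals of 273, 293 and 220.3 in pRb-deficient and 1023, 1055 and 1160 in pRb-expressing cultures. Each pRb-deficient culture lay far below the lowest pRb-expressing one. The log2 fold change was −2.05 (SE 0.13, adjusted p = 5.17e-05 by limma), 4.14-fold lower. All 4 Sox6 probe sets were lower, with log2 fold changes from −2.28 to −1.57. The 95% intervals of the brightest probe sets ran from 1.39 to 3.85 for Sox5 and from −2.36 to −1.74 for Sox6. The third SoxD gene, Sox13, had 200.2 ± 29.4 in pRb-deficient and 171 ± 24.2 in pRb-expressing cultures (SD, n = 3 each) and did not pass (0.23, 95% interval −0.22 to 0.68). Of the SoxE relatives of Sox9, Sox10, a neural crest factor, had 133 ± 13.2 in pRb-deficient and 280.1 ± 29.3 in pRb-expressing cultures and was lower in its brightest probe set (−1.08, adjusted p = 0.00215 by limma), 1 of 3, while Sox8 lay near background and did not pass (−0.17).

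To show what lies in front of these 2 genes, the 250 bases before 1 RefSeq start of each are given 5′ to 3′ (GRCm38.p6), with matches to a core SOX motif in capitals. For Sox5 this is chr6:143947107-143947356 (minus strand) and for Sox6, of whose 6 starts the farthest upstream is shown, chr7:116038745-116038994 (minus strand).
Sox5: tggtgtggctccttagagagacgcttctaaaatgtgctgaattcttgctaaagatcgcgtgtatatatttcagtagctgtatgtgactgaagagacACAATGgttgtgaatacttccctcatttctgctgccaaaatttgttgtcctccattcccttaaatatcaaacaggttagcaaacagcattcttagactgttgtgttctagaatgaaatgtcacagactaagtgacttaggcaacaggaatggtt
Sox6: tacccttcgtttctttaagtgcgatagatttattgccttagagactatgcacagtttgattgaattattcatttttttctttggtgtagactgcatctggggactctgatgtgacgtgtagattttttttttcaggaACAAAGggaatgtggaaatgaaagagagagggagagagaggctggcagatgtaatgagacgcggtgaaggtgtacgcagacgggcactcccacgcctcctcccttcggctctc
The motif searched was ACAATG or ACAAAG on either strand. It occurs once in the Sox5 window and in 5 of the 6 Sox6 windows, and in 25.2% of all 32851 promoter windows of this length. Of the 10 genes, 8 had a window (13 windows in all, Sox9 and Comp having none here), and no window of Acan, Matn1, Matn3, Hapln1, Cnmd or Chad held a match. A match is a description of the letters and not of a binding site.

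Aggrecan and its link protein also changed in opposite directions. Acan, which encodes aggrecan, had signals of 480.2, 525 and 896 in pRb-deficient and 119.6, 106 and 162 in pRb-expressing cultures. All pRb-deficient cultures were higher, with replicate 3 well above the other two. The log2 fold change was 2.26 (SE 0.28, adjusted p = 0.000852 by limma), 4.79-fold, from the single Acan probe set, and 1.98 without pRb-deficient replicate 3. Chromosome 7, which holds both Acan and Sox6, had a median of −0.33.

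Hapln1, which encodes cartilage link protein, had the largest log2 fold change in size among the brightest probe sets of the 9 tested genes, with signals floored at 32. Its signals were 49.7, 47.7 and 49.6 in pRb-deficient and 612, 589 and 597 in pRb-expressing cultures. The cultures of a group differed little, and the pRb-deficient ones were close to the floor. The log2 fold change was −3.61 (SE 0.14, adjusted p = 9.42e-06 by limma), 12.2-fold lower. All 4 Hapln1 probe sets were lower, from −3.61 to −2.27, on a chromosome (13) whose median was 0.33.

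The windows in front of these 2 genes are shown since their base composition differs, with the dinucleotide CG in capitals, 5′ to 3′ from RefSeq (GRCm38.p6). They are chr7:79052976-79053225 for Acan and chr13:89540386-89540635 for Hapln1, both on the plus strand.
Acan: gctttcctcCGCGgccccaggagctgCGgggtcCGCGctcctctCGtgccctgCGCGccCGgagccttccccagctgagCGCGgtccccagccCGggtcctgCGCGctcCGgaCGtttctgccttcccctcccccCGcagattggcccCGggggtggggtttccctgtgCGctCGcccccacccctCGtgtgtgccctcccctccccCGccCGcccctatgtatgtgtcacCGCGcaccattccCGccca
Hapln1: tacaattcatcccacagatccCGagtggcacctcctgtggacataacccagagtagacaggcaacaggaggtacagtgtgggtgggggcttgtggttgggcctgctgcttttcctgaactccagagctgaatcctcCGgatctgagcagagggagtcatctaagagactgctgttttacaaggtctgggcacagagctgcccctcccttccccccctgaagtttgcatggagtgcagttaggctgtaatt
The Acan window holds 26 CG dinucleotides and the Hapln1 window 2. The median over all 32851 windows was 6, with 9.59% holding more than 25 and 37.8% holding at most 3. Among the other genes called, the window of Sox5 (higher) held 3. Those of the lower genes held 14 for Matn3, 0 for Cnmd and 1 to 10 for Sox6. Whether base composition is tied to the changes was not tested. Methylation was not measured in this study.

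In the mouse genome each of the 4 link protein genes lies beside a lectican, the family of hyaluronan-binding proteoglycans to which aggrecan belongs, with 0 protein-coding genes between them in the RefSeq order. Vcan (versican), the neighbor of Hapln1, had 45.9, 53.5 and 46.2 in pRb-deficient and 726, 662 and 647 in pRb-expressing cultures, −3.81 on the log2 scale (adjusted p = 1.01e-05 by limma) beside −3.61 for Hapln1, with 3 of 8 Vcan probe sets lower and none higher. The neighbor of Acan is Hapln3, which did not pass (−0.28, 95% interval −0.75 to 0.19). Hapln4 was lower, with 109 ± 13.4 in pRb-deficient and 499.7 ± 84.5 in pRb-expressing cultures (SD, n = 3 each, −2.19), while its neighbor Ncan, the neurocan gene, did not pass (0.10). Hapln2 and Bcan, the brevican gene, did not pass either (0.14 and −0.07). Thus the 2 genes of a pair were called in the same direction at 1 locus, 1 of the 2 was called at 2 loci, and neither at 1, so that 4 of the 8 genes were called, a share near the 41.9% of all genes. Mef2c, a regulator of chondrocyte hypertrophy on the same chromosome, is among the 10 nearest genes averaging a signal of 200 or more around Hapln1. Of these, 5 were higher and 2 (Vcan and Mef2c) were lower, beside 59.0% called in either direction among all genes at that signal.

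Matn3 was lower and Matn1 was near background. Matrilins are adaptor proteins of the matrix, and Matn1 and Matn3 are the cartilage forms. Matn3 had signals of 55.1, 67.7 and 54.5 in pRb-deficient and 139, 142 and 167 in pRb-expressing cultures. The groups did not overlap, at a low level. The log2 fold change was −1.34 (SE 0.19, adjusted p = 0.00173 by limma), and with a floor of 100 it was −0.58. A dimmer probe set, 1455948_x_at, whose suffix marks probes that may match other transcripts, was lower too, with 0.80, 1.00 and 7.10 in pRb-deficient and 77.4, 70.3 and 85.2 in pRb-expressing cultures. Matn1 had 43.7, 16.6 and 26.2 in pRb-deficient and 21.0, 36.6 and 32.6 in pRb-expressing cultures (0.08, 95% interval −0.30 to 0.45), values around the floor that overlap.

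The more widely expressed matrilins moved in opposite directions. Matn2 had 5248, 5595 and 5169 in pRb-deficient and 1509.6, 1441 and 1409.9 in pRb-expressing cultures, 3.67-fold higher (1.88, adjusted p = 5.06e-06 by limma). Matn4 had 488, 182 and 61.6 in pRb-deficient and 2288, 2410 and 2399 in pRb-expressing cultures (log2 fold change −3.75, SE 0.66, adjusted p = 0.00439 by limma). The pRb-deficient cultures differed widely from each other in Matn4 and all lay below the pRb-expressing ones.

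Cnmd, which encodes chondromodulin, a cartilage protein that inhibits vessel growth, was lower in pRb-deficient osteoblasts. Its signals were 34.4, 35.3 and 11.8 in pRb-deficient and 151, 161 and 151 in pRb-expressing cultures. Of the pRb-deficient cultures 1 lay under the floor of 32 and the others just above it, and all lay below the pRb-expressing ones. With the value under the floor counted as 32, Cnmd was at least 4.56-fold lower (log2 fold change −2.19, SE 0.16, adjusted p = 9.41e-05 by limma). With a floor of 100 the value was −0.63 and still passed. Cnmd lies on chromosome 14, as Rb1 does, with a chromosome median of 0.28. Of its 10 nearest genes averaging a signal of 200 or more, 7 were higher and 0 lower, beside 59.0% called in either direction among all such genes. Its tendon relative Tnmd averaged 33.5 in pRb-deficient and 45.4 in pRb-expressing cultures and did not pass (95% interval −0.74 to 0.17).

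Comp, Matn1 and Chad gave no difference that could be resolved. Comp, which encodes cartilage oligomeric matrix protein, also a protein of tendon, had 67.8, 18.9 and 67.5 in pRb-deficient and 36.4, 129.5 and 73.0 in pRb-expressing cultures. The groups overlapped, and the 95% interval of the log2 fold change (−0.41) ran from −1.62 to 0.80. Chad, which encodes the integrin-binding protein chondroadherin, was between 5.40 and 11.2 on the 6 arrays, under the floor. Its relative Chadl had 122 ± 15.0 in pRb-deficient and 62.6 ± 34.1 in pRb-expressing cultures (SD, n = 3 each), which did not overlap and did not pass (1.02, adjusted p = 0.0885 by limma). Comp belongs to the thrombospondins, of which Thbs1 was higher (1.16), Thbs3 was lower (53.4 ± 20.3 in pRb-deficient and 356 ± 44.6 in pRb-expressing cultures, −2.79), Thbs2 did not pass and Thbs4 was at or below 32 on all arrays.

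**Figure D2:**
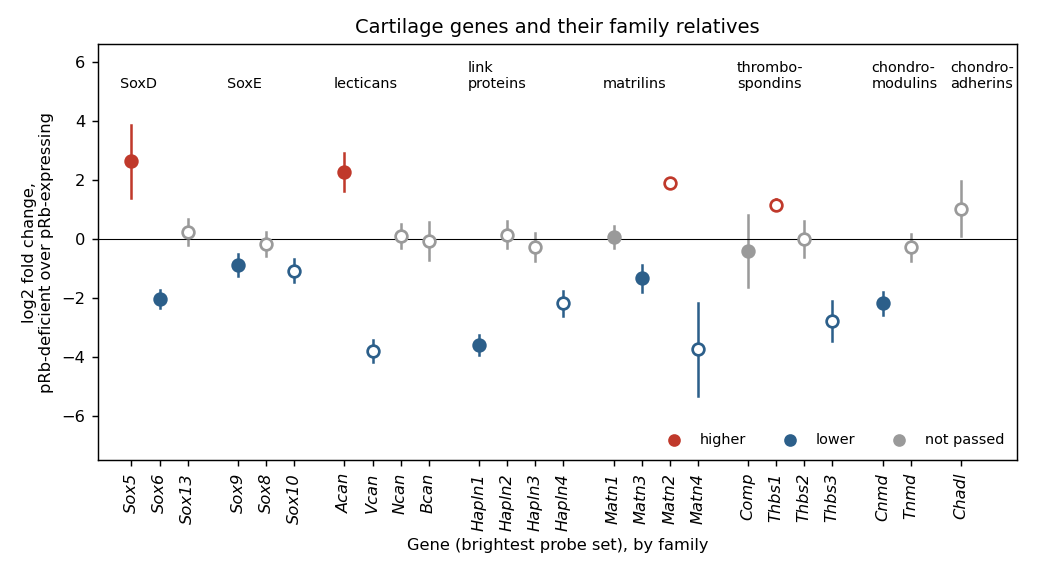
Log2 fold change, pRb-deficient over pRb-expressing (y axis), of the 9 tested genes among the 10 (filled points) and of their tested family relatives (open points), by family, with 95% intervals by limma as lines. Each of the SoxD, lectican and matrilin families has a gene that was higher and a gene that was lower, as have the thrombospondins, whereas link proteins called were lower.

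**Figure D3:**
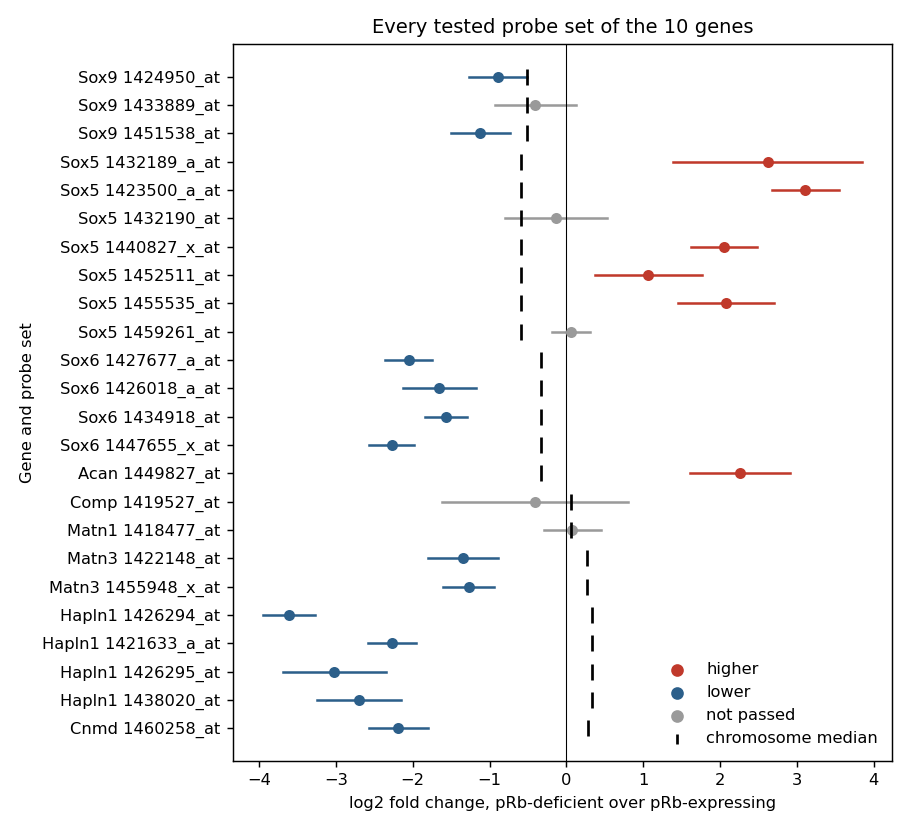
Log2 fold change, pRb-deficient over pRb-expressing (x axis), of the 24 tested probe sets, with 95% intervals by limma as lines. A black tick marks the median log2 fold change of the other genes on the same chromosome that average a signal of 200 or more. Of the 24 probe sets, 6 were higher (5 of Sox5, 1 of Acan), 13 lower and 5 not passed, and no gene had probe sets called in both directions.

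Over all 24 tested probe sets of the 10 genes, 6 were higher, 13 lower and 5 not called, beside 16.2% higher and 18.8% lower (35.0% in either direction) among all 38427 probe sets tested. Groups did not overlap in 19 of them, beside 48.0% of all probe sets tested. The 6 that were higher belong to Sox5 and Acan, and the probe sets of a gene share its transcripts and are not separate observations.

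The collagens that chondrocytes deposit were called at a share near that of all genes (41.9%). Of 8 cartilage collagen genes, 0 were higher, 3 lower (Col2a1, Col11a1 and Col27a1), 3 did not pass and 2 (Col9a2 and Col10a1) were at or below 32 on all arrays. The median log2 fold change of the 6 tested was −0.72, beside −0.09 over all genes. Col2a1, the type II collagen that defines cartilage and is a target of SOX9, had 389, 329.6 and 747 in pRb-deficient and 1554, 1736 and 1335 in pRb-expressing cultures (−1.74, SE 0.29, adjusted p = 0.00358 by limma). Among the pRb-deficient cultures replicate 3 was the highest for Col2a1, as for Sox9 and Acan. The same culture was the lowest of them for Sox5, Sox6, Matn3, Cnmd, Col11a1 and Col27a1. Col11a1, a minor fibril collagen of cartilage and other tissues, had a log2 fold change of −1.70 and Col27a1 of −1.28.

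Of 16 other cartilage matrix genes tested, 0 were higher, 4 lower and 12 not called (median −0.32), beside 41.9% called among all genes tested. Matn4 (lower), Hapln3 and Chadl, given above as relatives, are among these 16. A replicate block in the fit, or removal of chromosome medians, made 1 of the 16 higher. Fmod, the collagen-binding proteoglycan fibromodulin, which is common in tendon and bone as well, had 1405, 872 and 717 in pRb-deficient and 17527, 17961 and 15802 in pRb-expressing cultures, 17.8-fold lower. Prelp, a leucine-rich protein of connective tissue, had a log2 fold change of −2.39. Of 13 further regulators of chondrocytes tested, 2 were higher (1 with a floor of 100), 3 lower and 8 not called, again beside 41.9%. Runx1, a factor of early chondrogenic cells and of blood, was higher (1.73), and Mef2c (−3.79), the growth plate factor Trps1 (−1.23) and Bhlhe40 (−0.83) were lower, while Runx2 was not analysed here.

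Genes that build the sugar chains of aggrecan and the hyaluronan it binds went both ways. Of 23 tested, 7 were higher, 8 lower and 8 not called (median −0.06), beside 18.5% higher and 23.4% lower among all genes tested. Csgalnact1, which starts chondroitin chains, was 4.79-fold higher (334, 339.8 and 404 in pRb-deficient, against 65.0, 79.1 and 81.0 in pRb-expressing cultures). The hyaluronan synthase genes differed: Has1 was higher (2.22), Has2 was lower and Has3 did not pass. Has2 averaged 361 in pRb-deficient and 1489 in pRb-expressing cultures (−2.08, adjusted p = 0.000178 by limma). Chst15, a chondroitin sulfotransferase, was 15.6-fold lower, and Xylt2, which attaches the first sugar to the core protein, was lower too (−2.15). A further list held 11 tested genes of aggrecan and hyaluronan breakdown (proteases, a protease inhibitor, hyaluronidase and the receptor Cd44). Beside 41.9% called among all genes tested, 2 of these 11 were higher (1 with chromosome medians removed or with a floor of 100). Another 6 were lower and 3 did not pass (median −1.42). The lower ones included the proteases Adamts1 (−2.62), Adamts4 (−2.12), Mmp13 (−2.12) and, as an inhibitor of such proteases, Timp3 (−2.18), with 1782, 1279 and 807 in pRb-deficient and 5658, 5899 and 5099 in pRb-expressing cultures for Timp3.

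**Figure D4:**
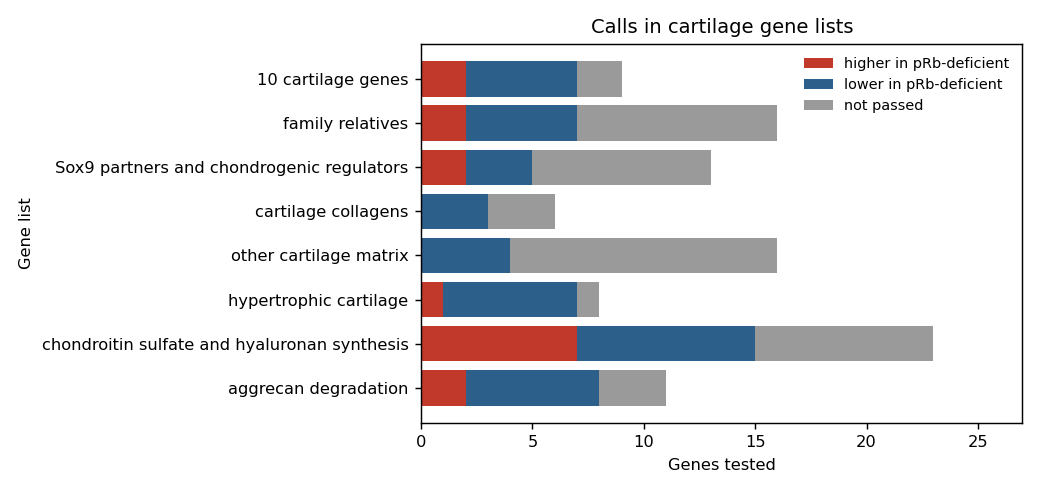
Number of genes tested (x axis) in each cartilage gene list called by limma as higher or as lower in pRb-deficient cultures, and the number not called. The 10 genes described here have 2 higher and 5 lower, and the cartilage collagens have 0 higher and 3 lower.

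The labelled cell type is osteoblast, and chondrocyte markers were measured in both groups. Their signals ran from near background (Matn1) to well above the array medians of 108.0 to 119.9 (Sox9 and Col2a1). For comparison with each count below, 41.9% of all genes tested were called, 18.5% as higher and 23.4% as lower. Of 10 chondrocyte markers (6 of the genes above, with Col2a1, Col9a1, Col11a2 and Ucma), 1 was higher, 5 lower and 4 not called. Their summed signal was 2037 to 2938 in pRb-deficient and 3730 to 4526 in pRb-expressing cultures. Only 5 of the 10 reached a signal of 200 on any array. Of 6 tested tendon markers, 2 were higher and 3 lower (summed signal 14710 to 16500 in pRb-deficient and 28960 to 32550 in pRb-expressing cultures). Of 6 smooth muscle markers, 2 were higher and 2 lower, with Cnn1 at least 77.4-fold higher and Myh11 at or below 32 on all arrays (27550 to 32610 in pRb-deficient and 24320 to 27020 in pRb-expressing cultures). Of 4 Schwann and neural crest markers, 0 were higher and 2 lower (258 to 319 in pRb-deficient and 1887 to 2174 in pRb-expressing cultures). Epithelial, hematopoietic, endothelial and adipocyte markers were called in 2 of 7, 2 of 7, 0 of 6 and 1 of 5 genes tested. The epithelial and adipocyte markers called were lower, and the hematopoietic ones higher. The part of these cell types in the changes of the 10 genes was not tested.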

How the data were processed

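RNA of 6 cultures was labelled and hybridized by the authors, 1 array each. The intensities are MAS5 signals as deposited by the authors, on a linear scale, scaled by them to a trimmed mean of 500 per array. Affymetrix Expression Console 1.1 and MAS5 stand in the submitters' processing notes, and no detection calls were used. The trimmed mean was checked as 500.0 on each array (2% left out at each end), and medians were 108.0 to 119.9. The number of arrays limits the precision.

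Controls (64 probe sets) and 6610 probe sets at or below 32 on all arrays were left out. Values under 32 were set to 32, and log2 signals were modelled in R 4.3.3 by limma 3.58.1 (lmFit and trended eBayes), with group as the only term. P-values are two-sided and adjusted over 38427 probe sets. Folds are of fitted geometric means unless called a ratio of mean signals, and "at least" marks a fold whose dimmer group has values counted as 32. Log2 fold changes given without a fold carry no such mark, though values counted as 32 enter some of them, as for Sox5, Xylt2 and Panx3. The methods name a Wilcoxon statistic with permutations, which was not run here, and limma was used in its place. The steps were tested on simulated data.

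The annotation gave 1 symbol for 34945 probe sets, of which 34741 matched RefSeq (GRCm38.p6), used for names, chromosomes and gene order. Promoter windows are RefSeq's. The members, lists and alternatives were chosen with earlier results of these data known. The lists share genes and are not separate: Matn4, Hapln3, Chadl and Sox8 are also relatives, and Mef2c, Mmp13 and Col10a1 stand in several lists. Named genes are all members and relatives, up to 4 per other list with the largest changes past the threshold, without overlap and with a mean of at least 200 in the higher group, with Col2a1 and the genes that check the labels. Col9a2, Col10a1 and Myh11 are named as being at the floor, and Phex, Col9a1, Col11a2 and Ucma as markers. Vegfa is named as the only higher gene of its list, and Has2 and Has3 as the other hyaluronan synthase genes beside Has1. The alternatives tried were a floor of 100, no floor, adding 32 to each signal, median centring, quantile normalization, a minimum mean of 100, no trend, array weights, a replicate block, removal of chromosome medians, other probe sets and leaving out each array.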

Additional observations from a re-analysis of the deposited data

How the results depend on the processing

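Of 155 values of the 10 genes under the alternatives, 145 kept their direction and side of the threshold, 4 kept the direction and no longer passed, and 6 changed sign. Sox9 was −0.37 with chromosome medians removed (adjusted p = 0.116 by limma) and −0.41 in probe set 1433889_at, neither of which passed. Sox5 was −0.14 in probe set 1432190_at and 0.059 in 1459261_at, both near background, and ran from 1.98 to 2.97 when each array was left out, with 2.52 (adjusted p = 0.0522 by limma) without pRb-deficient replicate 2. Comp and Matn1, which never passed, changed sign in 5 values: Comp ran from −0.88 to 0.032 when each array was left out and Matn1 from −0.074 to 0.15, and Matn1 was −0.13 with no floor, −0.044 with a pseudocount of 32 and −0.035 with array weights. Genes called higher numbered 1 to 2 when each array was left out, the 1 being without pRb-deficient replicate 2. Genes called lower numbered 4 with chromosome medians removed and with a mean of at least 100, and 5 under the other alternatives per gene. Counting every probe set gave 6 higher and 13 lower. The cause of these differences was not tested. Comp, Matn1 and Cnmd have no value at a mean of at least 100, and Matn1 has none at a floor of 100.

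Arrays with the same number in the 2 groups were treated as unpaired. With the group mean of each probe set subtracted, their correlations were 0.02, −0.03 and 0.06. Before that subtraction, arrays of different groups correlated at 0.912 to 0.917. The replicate block left 2 genes higher and 5 lower, with 5801 probe sets higher and 6566 lower over the array, and changed 1 of 29 values, other cartilage matrix genes higher (1 in place of 0). Of 56 counts of the other lists, 51 stayed within 1.5 times. Over all probe sets, leaving out 1 array gave 4767 to 5981 higher and 5382 to 7069 lower. Low signals limit Comp, Matn1, Matn3, Cnmd and Chad.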

Other observations

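Of 8 tested genes of hypertrophic cartilage, the stage before cartilage is replaced by bone, 1 was higher, 6 were lower and 1 did not pass (median −2.96). Among all genes tested 18.5% were called as higher and 23.4% as lower. Several genes of this list are also osteoblast genes, and Col10a1 was at or below 32 on all arrays. The higher gene was Vegfa, with 2304, 1869 and 1867 in pRb-deficient and 562, 576 and 549 in pRb-expressing cultures (1.83, adjusted p = 2.81e-05 by limma). Panx3, a channel protein gene, had signals of 56.8, 42.1 and 31.5 in pRb-deficient and 2977, 3035 and 3380 in pRb-expressing cultures (−6.20, adjusted p = 4.94e-06 by limma). Pth1r, the receptor for parathyroid hormone and its related peptide, had 402, 343 and 272 in pRb-deficient and 4689, 4758 and 5400.2 in pRb-expressing cultures (−3.88, adjusted p = 7.62e-06 by limma).

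S100b, a calcium-binding protein gene of glia that chondrocytes express too, had 17.6, 36.9 and 23.5 in pRb-deficient and 1634, 1446 and 1760 in pRb-expressing cultures, at least 47.9-fold lower. It stands in the Schwann and neural crest list, and whether its change is tied to that of Sox9 was not tested.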
